A study of Mus musculus with 12 samples.

Results

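Transcript levels of 8 genes of the SREBP and cholesterol supply pathway were read from RNA sequencing of mouse oocytes. The genes were chosen by name, with earlier results of these data known. They are the rows Srebf1, Srebf2, Scap, Insig1, Insig2, Hmgcs1, Sqle and Scarb1 of a count table of 24062 genes. All 8 passed the filter on low counts that left 9935 genes for testing, Srebf2 only through its CD libraries, as given below. One set of 6 libraries came from females given a high-fat, high-calorie diet (HFD) for 9 weeks, and the other set of 6 from females given a control diet (CD) for the same time. All females ate the control feed while they were mated with vasectomized males, and oocytes were collected at day 0.5 after mating. The labels give the same product code for both feeds, the HFD as a modified version, so the makeup of the control feed is uncertain. The strain and age of the females are not given in the labels used here. Each library was made from 4 pooled oocytes. The labels do not tie a pool to a female, so the tests reflect variation among pools, some of which may be technical.

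Cells sense cholesterol through a protein complex in the membrane of the endoplasmic reticulum. When sterols are scarce, the escort protein SCAP carries the SREBP transcription factors to the Golgi, where proteases release their active part, and when sterols are plentiful the INSIG proteins hold SCAP back. SREBP-2 mainly drives genes of cholesterol synthesis and uptake, and SREBP-1 mainly drives genes of fatty acid synthesis. Mouse oocytes are known to make little cholesterol of their own and to depend on the surrounding cumulus cells for it, and female mice that lack the lipoprotein receptor encoded by Scarb1 are infertile.

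HFD libraries held 8409491 to 13793598 gene counts and CD libraries 8556396 to 10477316. Summed oocyte markers stood at 12536 to 29248 CPM (counts scaled to a common library total) in HFD pools and 9926 to 20144 CPM in CD pools. Haemoglobin genes had no count in any library, but the blood marker Lyz2 reached 3.52 CPM in CD replicate 1. Oviduct epithelium markers summed to 2.59 to 29.3 CPM in HFD pools and 4.63 to 10.6 CPM in CD pools. For the 11 oocyte markers tested, the median log2 fold change was 0.99, with 0 past the adjusted threshold in edgeR and 1 in DESeq2 and in the edgeR fit with the Mos class described below. That median was 0.42 without HFD replicate 3 and 0.43 with a trend on transcript length removed. In 4 pools, HFD replicates 1 and 2 and CD replicates 2 and 4, the transcript of Mos, a kinase that holds the mature egg in metaphase, stood at 3.84 to 9.40 CPM, against 146 to 1702 CPM in the other 8. The oocyte growth factor Gdf9 stood at 543 to 616 CPM in those 4 pools, against 4601 to 9642 CPM in the other 8. Zar1 and Zp3 also lay lower in those 4 pools, but other oocyte markers overlapped. Bmp15 stood at 493 to 765 CPM in those 4 pools and 241 to 1880 CPM in the other 8. Dppa3 stood at 7251 to 20380 CPM in those 4 pools and 3012 to 15893 CPM in the other 8. These 4 are called Mos-low pools here; they were set apart after their values were seen, cross both diets evenly, and are compared with the others without a test. HFD replicate 3 also stood apart, with a median correlation of 0.788 with the other HFD libraries. Fewer cells of a type and less RNA per cell cannot be told apart in pooled oocytes.

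The 8 genes covered a wide range of levels, with Insig1 and Hmgcs1 at the top and the transcription factors at the bottom. Per kilobase of exon sequence, Insig1 had the highest mean level, at 49.0 ± 33.5 CPM per kb in HFD pools and 88.0 ± 54.3 CPM per kb in CD pools (SD, n = 6 each), above 92.9% of tested genes. Hmgcs1 came next, at 31.5 ± 14.8 CPM per kb in HFD pools and 35.0 ± 19.2 CPM per kb in CD pools. Scap averaged 9.31 CPM per kb over the 12 libraries, Scarb1 4.90, Sqle 2.86 and Insig2 2.74 CPM per kb. Srebf1 averaged 0.501 CPM per kb and Srebf2 0.421 CPM per kb, which placed them above only 11.5% and 9.13% of tested genes. In CD pools the ranges of every pair of neighbours in this order overlapped, and in HFD pools only Hmgcs1, at 12.7 to 53.8 CPM per kb, and Scap, at 4.08 to 12.3 CPM per kb, did not.

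**Figure D1:**
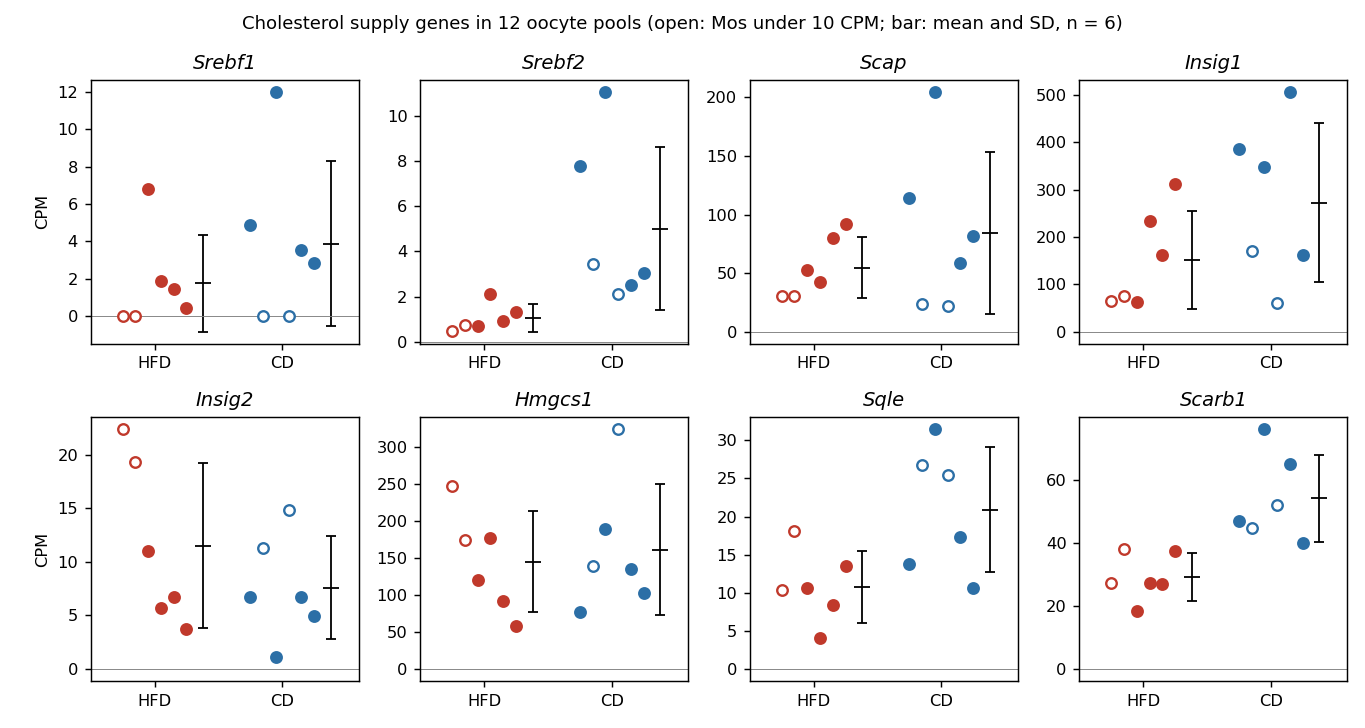
Level of each of the 8 genes in CPM (vertical axis, from 0) in the 6 HFD pools at the left of each panel and the 6 CD pools at the right; points are libraries, open points are the 4 Mos-low pools, and bars give the mean and SD. Scarb1 is the panel in which the HFD points, up to 37.9 CPM, all lie below the CD points, which start at 40.0 CPM.

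The lower level in HFD pools was the common direction. Of the 8 genes, 7 had a log2 fold change (HFD minus CD) below 0, against 48.2% of all tested genes. The median of the 8 was −0.87, against 0.04 over all tested genes. Because the 8 were chosen with earlier results of these data known, neither these shares nor those below test the pathway as a set. At an unadjusted p under 0.05 in edgeR's quasi-likelihood test, 3 genes were lower in HFD pools (Srebf2, Scarb1 and Sqle) and 0 were higher; over all tested genes, 8.89% were lower at that p and 22.3% differed in either direction. After adjustment over all tested genes, edgeR called 0 of the 8, and 0% of all genes, at a threshold of 0.05. DESeq2 called 2 of the 8, Srebf2 and Scarb1, both lower in HFD pools, and called 2.76% of all genes in that direction and 7.59% in either. With limma-voom, run with a quality weight for each library, 0 of the 8 passed, against 0.352% of all genes in either direction and 0.0302% lower in HFD pools.

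**Figure D2:**
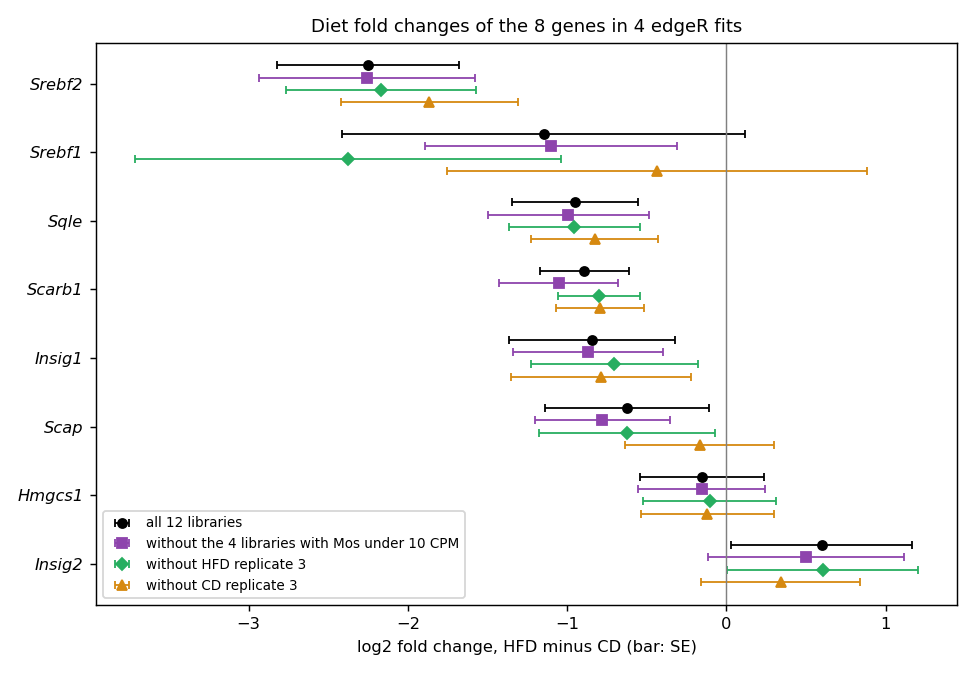
Log2 fold change, HFD minus CD (horizontal axis, bars ± SE), of each gene in edgeR fits to all 12 libraries (black circles), without the 4 Mos-low pools (squares), without HFD replicate 3 (diamonds) and without CD replicate 3 (triangles). Srebf2 stays between −2.26 and −1.87 in the 4 fits, whereas Srebf1 moves between −2.38 and −0.44.

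Srebf2 (chr15:82147181-82205379, plus strand, mm10) encodes SREBP-2, the main activator of cholesterol synthesis genes. It stood at 0.486, 0.736, 0.698, 2.13, 0.921 and 1.32 CPM in HFD replicates 1 to 6, and at 7.77, 3.46, 11.1, 2.12, 2.51 and 3.04 CPM in CD replicates 1 to 6. Every HFD pool was below the CD mean, but so were CD replicates 2, 4, 5 and 6. The groups overlapped only through HFD replicate 4 and CD replicate 4. The level averaged 1.05 ± 0.599 CPM in HFD pools and 4.99 ± 3.61 CPM in CD pools (SD, n = 6 each), a log2 fold change of −2.25 ± 0.57 (SE), 4.76-fold lower in HFD pools. The adjusted p was 0.0913 in edgeR, 0.133 in edgeR without the low-count filter and 0.00476 in DESeq2. These levels rest on deposited counts of 6 to 18 per HFD library and 17 to 117 per CD library. The low-count filter asks for about 10 counts in at least 6 libraries. HFD replicates 1, 2, 3 and 5 had fewer than 10, so Srebf2 was tested only because its level was higher in CD pools. All counts of HFD replicates 1, 2, 4 and 6 were even, so their reads may have been tallied double, and halved counts of Srebf2 in those 4 would be 3 to 9. The highest HFD library, replicate 4, had an exact Poisson 95% interval of 1.26 to 3.36 CPM, and the lowest CD library, replicate 4, one of 1.23 to 3.39 CPM. With the count of HFD replicate 4 and its library total halved, its interval would be 0.973 to 4.04 CPM. Reads carried no molecular identifiers, so such intervals and the floor given for Srebf1 below cover counting error only, and they are too narrow where counts were doubled.

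The direction of Srebf2 did not turn with the pools used. Its log2 fold change was −2.26 ± 0.68 (SE) without the 4 Mos-low pools and −2.19 within those 4 alone. With the Mos class as a second term it was −2.23, with an adjusted p of 0.0450 in edgeR, and that fit called 0.745% of all genes lower in HFD pools and 2.82% in either direction. Leaving out 1 library at a time gave −2.58 to −1.87, with adjusted edgeR p-values of 0.0789 to 0.227.

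The DNA just upstream of Srebf2, Hmgcs1 and Insig1 is shown because SREBPs are known to bind promoters of their targets, Srebf2 itself among them, and these 3 genes have a single RefSeq start each. The windows hold 250 bases before the start (RefSeq, GRCm38.p6), read 5′ to 3′ on the plus strand, at chr15:82147019-82147268 for Srebf2, chr13:119690101-119690350 for Hmgcs1 and chr5:28071162-28071411 for Insig1. The GENCODE starts used for the gene positions lie inside the windows of Srebf2 (82147181) and Insig1 (28071363). By that annotation, the last part of each of these windows is within the gene. Capitals mark matches on either strand to the sterol regulatory element core TCACCCCA, the CCAAT box and the E-box CACGTG.
Srebf2: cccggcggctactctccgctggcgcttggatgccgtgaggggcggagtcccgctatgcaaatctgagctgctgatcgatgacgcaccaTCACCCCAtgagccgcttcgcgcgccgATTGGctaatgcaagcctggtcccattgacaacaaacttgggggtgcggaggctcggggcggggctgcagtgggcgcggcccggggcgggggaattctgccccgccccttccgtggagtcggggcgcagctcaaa
Hmgcs1: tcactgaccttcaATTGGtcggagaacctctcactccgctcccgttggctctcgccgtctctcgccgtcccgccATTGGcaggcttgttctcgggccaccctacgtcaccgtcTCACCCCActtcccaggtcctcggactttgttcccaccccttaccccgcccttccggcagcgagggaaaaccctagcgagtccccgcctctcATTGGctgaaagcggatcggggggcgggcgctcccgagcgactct
Insig1: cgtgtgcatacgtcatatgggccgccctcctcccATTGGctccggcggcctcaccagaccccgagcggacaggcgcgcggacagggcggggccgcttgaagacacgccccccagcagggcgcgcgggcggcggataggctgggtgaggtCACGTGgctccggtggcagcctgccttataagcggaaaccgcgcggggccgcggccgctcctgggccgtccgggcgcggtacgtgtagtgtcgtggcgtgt
The sterol element core was found 1 time in the Srebf2 window and 1 time in the Hmgcs1 window, and in 1.34% of 32851 such windows over the genome. The 8 RefSeq windows of Srebf1, Scap and Insig2 held no copy, so the core was in 2 of 11 windows of the matched genes. The Insig1 window held no copy of these letters, 1 CCAAT box and 1 E-box, motifs found in 33.8% and 6.02% of all windows. The CCAAT box occurred 1 time beside the Srebf2 core and 3 times in the Hmgcs1 window. Of the 8 genes, 6 matched the RefSeq promoter table, and Sqle and Scarb1 did not. A match describes the letters and is not evidence of binding.

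Srebf1 (chr11:60199089-60222581, minus strand) encodes SREBP-1. It stood at 0, 0, 6.78, 1.89, 1.43 and 0.441 CPM in HFD replicates 1 to 6, and at 4.88, 0, 12.004, 0, 3.56 and 2.85 CPM in CD replicates 1 to 6. The 4 libraries without a read were the 4 Mos-low pools, where 3 counts over the group would have been 0.0721 CPM, and the other 8 lay between 0.441 and 12.004 CPM. Srebf1 averaged 1.76 ± 2.58 CPM in HFD pools and 3.88 ± 4.43 CPM in CD pools (SD, n = 6 each), a log2 fold change of −1.15 ± 1.27 (SE; adjusted p in edgeR 0.628). The value depended on single libraries, at −2.38 without HFD replicate 3 and −0.44 without CD replicate 3. A small part of its exons, 1.93%, overlaps Rai1 on the other strand, and the libraries do not mark strand.

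The balance of the SREBP transcripts differed between pools more than between diets. The log2 ratio of Srebf2 to Srebf1 counts (count + 0.5) averaged 0.94 ± 2.75 in HFD pools and 1.91 ± 2.95 in CD pools (SD, n = 6 each; two-sided exact permutation p = 0.556). It was 3.70 or more in all Mos-low pools, where Srebf1 had a count of 0, so the ratio there rests on the added 0.5. In the other 8 the ratio lay between −3.19, in HFD replicate 3, and 1.47, in HFD replicate 6.

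Scap (chr9:110333288-110384950, plus strand) encodes the escort protein of the SREBPs. Its lowest, median and highest levels were 30.4, 47.4 and 91.8 CPM in HFD pools, and 21.4, 70.1 and 205 CPM in CD pools, so the HFD range lay within the CD range. The Mos-low pools lay at 21.4 to 30.5 CPM, all below the other 8 at 42.3 to 205 CPM. Scap averaged 54.5 ± 25.8 CPM in HFD pools and 84.0 ± 69.0 CPM in CD pools (SD, n = 6 each), a log2 fold change of −0.62 ± 0.52 (SE; adjusted p in edgeR 0.502). That value was −0.17 without CD replicate 3, the highest library, and 0.43 within the 4 Mos-low pools. Of its exon bases, 13.2% overlap a gene on the other strand, 5830462I19Rik.

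Insig1 and Insig2 encode the proteins that retain SCAP, and Insig1 is itself a known SREBP target. Insig1 (chr5:28071363-28078662, plus strand) stood at 64.4, 75.1, 63.1, 233.5, 161.4 and 311.8 CPM in HFD replicates 1 to 6, and at 386.4, 170.3, 347.7, 61.3, 506.6 and 161.6 CPM in CD replicates 1 to 6. Levels spread widely in both groups, with 3 HFD pools and 1 CD pool under 100 CPM. It averaged 152 ± 104 CPM in HFD pools and 272 ± 168 CPM in CD pools (SD, n = 6 each), a log2 fold change of −0.85 ± 0.52 (SE; adjusted p in edgeR 0.351).

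Insig2 (chr1:121304353-121332589, minus strand) was the one gene of the 8 with a log2 fold change above 0. It stood at 22.4, 19.3, 10.96, 5.67, 6.75 and 3.75 CPM in HFD replicates 1 to 6, and at 6.69, 11.2, 1.13, 14.8, 6.71 and 4.94 CPM in CD replicates 1 to 6. The Mos-low pools held the 4 highest levels, 11.2 to 22.4 CPM, against 1.13 to 10.96 CPM in the other 8. Its log2 fold change was 0.60 ± 0.57 (SE; adjusted p in edgeR 0.568), with 3 of 6 HFD pools above the CD mean. It was 0.30 without HFD replicate 1, 0.34 without CD replicate 3, 0.30 with the length trend removed and 0.15 without the Mos-low pools and HFD replicate 3. With Srebf1 and Scap, Insig2 made 3 of the 8 genes whose Mos-low and other pools did not overlap. That was so for 10.6% of all tested genes, with the Mos-low pools all below in 6.97% and all above in 3.63%. Counting error was not allowed for in these shares, and they were not compared by a test. For Insig2 the nearest pools were CD replicate 2 (117 counts) and HFD replicate 3 (110 counts), so close that counting error could reverse their order. For Srebf1 the exact Poisson interval of CD replicate 4, with a count of 0, reached 0.460 CPM. That of HFD replicate 6, with 4 counts, began at 0.120 CPM, so the intervals overlapped.

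**Figure D3:**
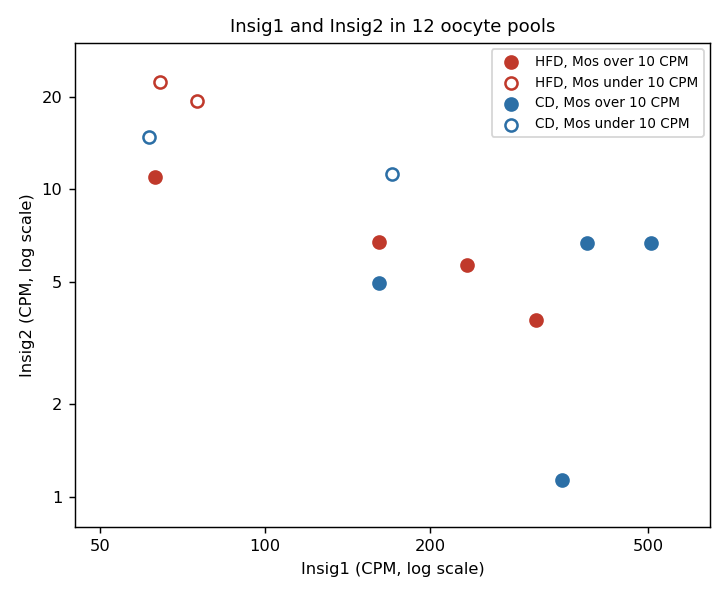
Insig1 (horizontal axis) against Insig2 (vertical axis) in each of the 12 oocyte pools, both in CPM on log scales, with HFD pools in red, CD pools in blue and the 4 Mos-low pools open. Pools with much Insig2 tend to hold little Insig1, and both diets are spread along that line.

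The ratio of Insig1 to Insig2 counts was taken per library with 0.5 added to each count. It was 2.87, 3.88, 5.73, 40.8, 23.7 and 81.9 in HFD replicates 1 to 6, and 57.4, 15.1, 294, 4.12, 75.0 and 32.4 in CD replicates 1 to 6. The ratios of both diets ran from under 5 to over 80, and the highest was in CD replicate 3. On the log2 scale the ratio averaged 3.71 ± 1.99 in HFD pools and 5.21 ± 2.10 in CD pools (SD, n = 6 each), a difference of −1.50 (two-sided exact permutation p = 0.236, or 0.472 adjusted over the 2 ratios tested). That difference was −0.90 without CD replicate 3 and lay between −2.13 and −0.90 with single libraries left out. With 6 pools a side, no p below 0.00216 is possible. The Pearson correlation of the log2 levels of the genes was −0.73 over the 12 libraries, which span both diets and share depth and the Mos split.

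Hmgcs1 and Sqle encode enzymes of cholesterol synthesis, Hmgcs1 at the entry to the mevalonate pathway and Sqle at the first oxygenation of squalene. Hmgcs1 (chr13:119690379-119708260, plus strand) had lowest, median and highest levels of 58.5, 147 and 247 CPM in HFD pools, and 76.6, 137 and 324 CPM in CD pools, and the ranges overlapped in part, with 1 HFD pool below every CD pool and 1 CD pool above every HFD pool. Its log2 fold change was −0.15 ± 0.39 (SE; adjusted p in edgeR 0.853), and it moved to between −0.37 and 0.17 with single libraries left out. An antisense gene, Gm48342, shares 12.1% of its exon bases.

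Sqle (chr15:59315077-59331192, plus strand) stood at 10.4, 18.04, 10.6, 4.02, 8.39 and 13.5 CPM in HFD replicates 1 to 6, and at 13.8, 26.8, 31.5, 25.4, 17.3 and 10.6 CPM in CD replicates 1 to 6. Sqle averaged 10.8 ± 4.72 CPM in HFD pools and 20.9 ± 8.21 CPM in CD pools (SD, n = 6 each). Every HFD pool was below the CD mean, but so were CD replicates 1, 5 and 6, and the ranges overlapped. The log2 fold change was −0.95 ± 0.40 (SE), with an adjusted p of 0.181 in edgeR. It ranged from −1.16 to −0.78 with single libraries left out.

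Scarb1 (chr5:125277087-125341094, minus strand) encodes the receptor SR-BI, which takes cholesterol from high-density lipoproteins. It stood at 27.2, 37.9, 18.2, 27.2, 26.8 and 37.5 CPM in HFD replicates 1 to 6, and at 47.0, 44.6, 76.1, 51.9, 65.0 and 40.0 CPM in CD replicates 1 to 6. All HFD pools lay below all CD pools, as was the case for 1.28% of tested genes. The level averaged 29.1 ± 7.47 CPM in HFD pools and 54.1 ± 13.7 CPM in CD pools (SD, n = 6 each), a log2 fold change of −0.89 ± 0.28 (SE), 1.86-fold lower in HFD pools. The adjusted p was 0.105 in edgeR and 0.0220 in DESeq2.

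For Scarb1 the change was −1.05 ± 0.37 without the Mos-low pools and −0.58 within them. Leaving out single libraries gave −0.99 to −0.79, with adjusted edgeR p-values of 0.0885 to 0.240. The slope of log2 CPM on log2 transcript length ran from −0.526 to −0.266 in HFD libraries, against −0.290 to 0.0575 in CD libraries. Genes with long annotated transcripts were thus relatively lower in most HFD libraries. Length here was the median over all annotated transcripts of a gene, short ones included. It was 823 bases for Scarb1, 1981 for Srebf2 and 2697 for Sqle, against 8500, 7184 and 5546 bases of exon sequence. The transcripts present in oocytes may differ from that median, so the correction may not suit single genes. With the length trend removed, the log2 fold change was −1.05 for Scarb1, −1.79 for Srebf2 and −0.74 for Sqle, and no gene passed the threshold.

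Cumulus and granulosa cells also express Scarb1 and the synthesis genes. Of 24 of their markers 4 were tested, and Amh, Amhr2 and Ptx3 were at 0 in all 12 libraries. Cyp19a1 was present in every library, at 14.9 to 42.8 CPM in HFD pools and 25.7 to 52.3 CPM in CD pools. Cyp11a1 reached 6.32 CPM in HFD pools and 49.4 CPM in CD pools, and Inha reached 8.92 CPM in HFD pools. The markers summed to 126 to 1822 CPM in HFD pools and 140 to 1357 CPM in CD pools, and Serpine2, which gave 92.3% of the sum, was low in the Mos-low pools. The sums averaged 698 ± 646 CPM in HFD pools and 753 ± 510 CPM in CD pools (SD, n = 6 each; two-sided exact permutation p = 0.877). Without Serpine2 they averaged 48.8 ± 15.0 CPM in HFD pools and 63.4 ± 19.4 CPM in CD pools (two-sided exact permutation p = 0.197). The part of these cells in the levels of Scarb1 and Sqle was not tested.

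**Figure D4:**
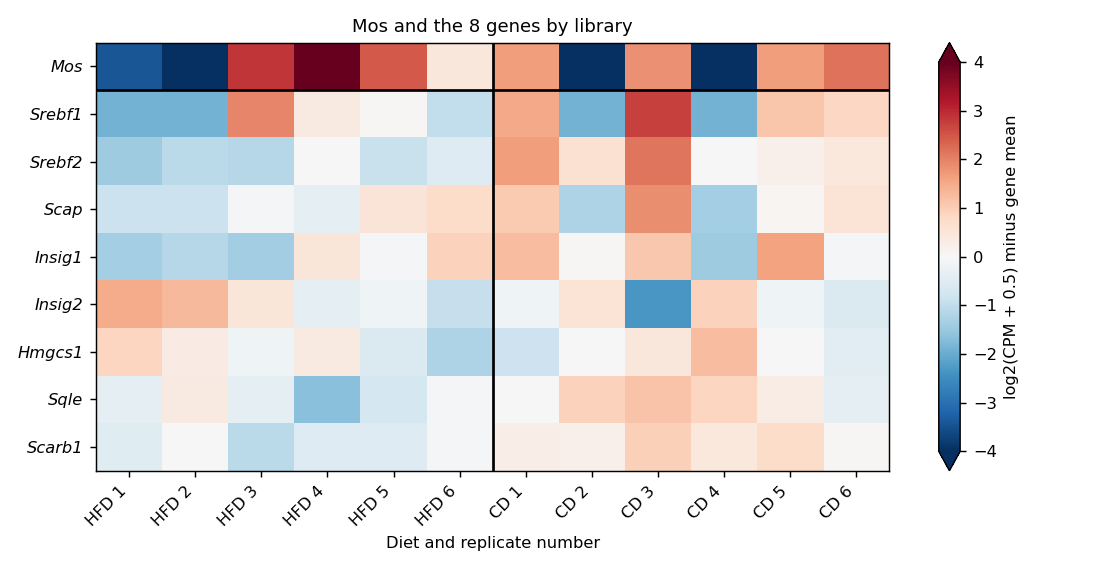
Log2(CPM + 0.5) of the 8 genes minus each gene's mean over the 12 libraries (color), with HFD pools at the left and CD pools at the right and the level of Mos in the top row. Srebf1 and Scap are low, and Insig2 is high, in the 4 pools where Mos is low.

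Of 19 further genes of SREBP processing and turnover, all tested, 9 had a fold change above 0 and 10 below, with a median of −0.01, and 0 passed the adjusted threshold. That median was −0.34 without HFD replicate 3 and −0.43 without the Mos-low pools and HFD replicate 3. Mbtps1, the site-1 protease that makes the first cut in SREBPs, averaged 7.53 ± 2.53 CPM in HFD pools and 20.1 ± 21.1 CPM in CD pools, with an adjusted edgeR p of 0.163. CD replicate 3 held 60.9 CPM of it, and the log2 fold change of −1.42 became −0.69 without that library. 2410131K14Rik had a log2 fold change of 3.25, which rested on HFD replicate 3 at 48.1 CPM and was 0.62 without it. Vcp, an ATPase that extracts proteins from the endoplasmic reticulum, averaged 2.45 ± 1.35 CPM in HFD pools and 5.59 ± 3.59 CPM in CD pools (adjusted edgeR p 0.242).

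Of 20 further cholesterol synthesis genes, 14 were tested, with a median log2 fold change of −0.20, 6 above 0 and 8 below, and 0 passed the adjusted threshold. Fdft1, which joins farnesyl units into squalene, reached 553 CPM in HFD replicate 3 and at most 13.8 CPM in the other HFD pools, and its log2 fold change of 3.74 was 0.53 without that library. Ggps1 averaged 16.7 ± 3.90 CPM in HFD pools and 10.2 ± 3.59 CPM in CD pools, and Idi1 17.9 ± 9.37 CPM in HFD pools and 33.1 ± 21.4 CPM in CD pools.

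Of 17 further uptake and transport genes, 10 were tested, 5 above 0 and 5 below; their median log2 fold change was 0.03, or −0.32 without the Mos-low pools and HFD replicate 3, and 0 passed. Osbp, an oxysterol-binding transfer protein, averaged 4.47 ± 3.16 CPM in HFD pools and 1.66 ± 0.874 CPM in CD pools (adjusted edgeR p 0.171). Npc2, which carries cholesterol out of lysosomes, averaged 70.2 ± 13.5 CPM in HFD pools and 49.3 ± 25.2 CPM in CD pools.

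Of 10 genes of efflux, ester formation and LXR, 5 were tested; 2 lay above 0 and 3 below, the median being −0.43 on the log2 scale, or −0.15 without CD replicate 3, and 0 passed in edgeR with diet as the only term. Apoe, a lipoprotein component, averaged 7.34 ± 4.27 CPM in HFD pools and 1.87 ± 0.743 CPM in CD pools, a log2 fold change of 1.96 ± 0.49 (SE), with an adjusted p of 0.0913 in edgeR, 0.0446 in edgeR with the Mos class as a second term and 0.00476 in DESeq2. Soat1, which esterifies cholesterol, averaged 35.2 ± 12.8 CPM in HFD pools and 62.2 ± 32.9 CPM in CD pools (adjusted edgeR p 0.194). Nr1h2, one of the LXR receptors, averaged 31.9 ± 11.7 CPM in HFD pools and 43.1 ± 20.6 CPM in CD pools.

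Of 13 lipogenic targets of SREBP-1, 5 were tested, and Scd1, Fads1 and Fads2 had no count in any library. Of the tested, 1 lay above 0 and 4 below, the median being −0.23 on the log2 scale, and 0 passed. Pnpla3, a lipid droplet protein, averaged 931 ± 430 CPM in HFD pools and 1491 ± 179 CPM in CD pools, a log2 fold change of −0.68 ± 0.30 (SE; adjusted edgeR p 0.201). Acly and Me1, which supply acetyl-CoA and NADPH, had log2 fold changes of −0.29 and −0.23.

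**Figure D5:**
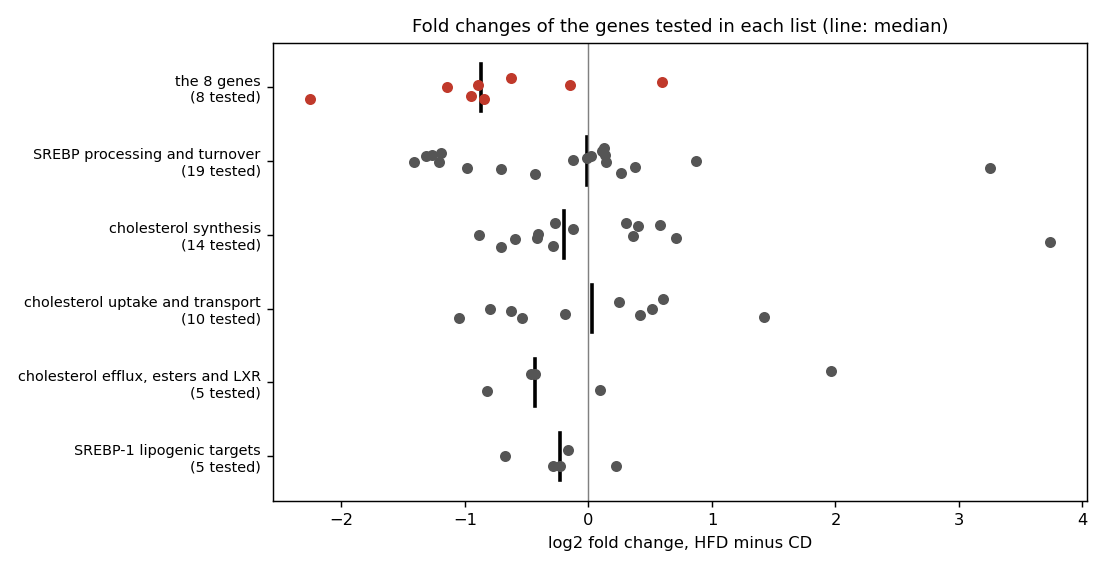
Log2 fold changes, HFD minus CD (horizontal axis), of the tested genes of each pathway list (rows), 1 point per gene, with the median of each list as a black line. The 8 genes named at the outset have a median of −0.87, and the other lists lie between −0.43 and 0.03.

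Genes whose log2 levels followed those of the 8 most closely over the 12 libraries are given as a description, since libraries span both diets and share depth and the Mos split. Scarb1 was most like Rnf14 (Pearson r = 0.960) and Snx9 (r = 0.957), and Srebf2 was most like Thsd7a (r = 0.936) and Spice1 (r = 0.916). Scap was most like Ak4 (r = 0.978) and Zdhhc8 (r = 0.973), Sqle most like Elac2 (r = 0.989) and Rpa1 (r = 0.975), and Srebf1 most like Stau1 (r = 0.963) and Dgat2 (r = 0.962). Insig2 was most like Upf3a (r = 0.964) and Uchl5 (r = 0.953), Insig1 most like Orai3 (r = 0.905) and Lrp11 (r = 0.896), and Hmgcs1 most like Fem1c (r = 0.906) and Gbe1 (r = 0.887). Among the 8 genes, Scap and Insig2 ran most oppositely (r = −0.86) and Scap and Srebf1 ran most alike (r = 0.81). Scarb1 correlated with Srebf2 at r = 0.75 and with Sqle at r = 0.73. All of Scarb1, Srebf2 and Sqle were lower in HFD pools at an unadjusted edgeR p under 0.05, so the diet difference enters these values.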

How the data were processed

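Whole-number read counts per gene were deposited by the authors for 12 libraries, not normalised. SMART-Seq v4 cDNA was made into Nextera XT libraries, per the labels' protocols, a chemistry that does not mark strand. Build mm10, STAR, HTSeq 1.0.0 and DESeq2 1.0.19 are named, per the submitters' processing notes; how reads were counted, on which annotation, is not given in the sources used here. All 5 lines of unassigned reads were kept out of library sizes and tests; they held 66.5% to 72.9% of tallied reads in HFD libraries and 62.3% to 66.6% in CD libraries. All counts of HFD replicates 1, 2, 4 and 6 were even, so those tallies may be doubled; counts were used as deposited. Libraries of a diet differed with a chi-square per degree of freedom of 25.1 to 328 (30 pairs), so none was treated as a copy.

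The diets were compared with edgeR 4.0.16 (R 4.3.3): TMM scaling, filterByExpr, robust quasi-likelihood F-test, diet as the only term, Benjamini-Hochberg adjustment over 9935 genes, threshold 0.05. The edgeR steps were run on simulated counts with known changes, as a check of the code. Recovery of the changes was required only at a spread far below the observed one. The run is therefore no measure of the power in these data. CPM are TMM-scaled counts, and correlations used log2 CPM with a prior count of 2. DESeq2 1.42.0 and limma 3.58.1 (voom with library quality weights) were alternatives. Others were other scalings, no low-count filter, halved even libraries, a replicate block, libraries left out and a length trend removed. Gene positions, exon lengths and median transcript lengths came from GENCODE M21. Besides the 8 genes, the text names up to 3 tested genes of each pathway list with the smallest p and the 2 genes most correlated with each of the 8. A few genes that the rule also took are not reported here. The genes and lists were chosen with earlier results of these data known.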

Additional observations from a re-analysis of the deposited data

Results flagged for a closer look

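In 6 of 50 groups of 6 libraries examined, the highest library stood far from the rest by Dixon's criterion. That criterion flags about 1 in 20 groups of independent, normally distributed values. CPM need not be normal and the groups share libraries, so that rate is no measure of chance here. All 6 lay in HFD replicate 3 or CD replicate 3. In HFD replicate 3, Srebf1 stood at 6.78 CPM with the next HFD library at 1.89 CPM, 2410131K14Rik at 48.1 CPM with the next at 2.43 CPM, and Fdft1 at 553 CPM with the next at 13.8 CPM. In CD replicate 3, Mbtps1 stood at 60.9 CPM with the next CD library at 23.0 CPM, Soat1 at 127 CPM with the next at 58.1 CPM, and Nr1h2 at 83.7 CPM with the next at 41.4 CPM.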

How the results depend on the processing

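Of 207 alternative values for the 8 genes, 200 kept their direction and their side of the threshold, 4 reversed and 3 newly passed it. The count of genes called, 0 in edgeR, was 754 (480 higher, 274 lower in HFD) in DESeq2, 35 (32 higher, 3 lower) in limma-voom, 456 (454 higher, 2 lower) with only the libraries holding odd counts and 280 (206 higher, 74 lower) with the Mos class as a second term; it was 11 without the Mos-low pools and HFD replicate 3, 5 within the Mos-low pools, and 0 in the other settings, each library left out included. Of the 8 genes, DESeq2 called 2 and the fit with the Mos class 1. Settings that use the Mos class were chosen after seeing the data. The HFD minus CD difference in the log2 ratio of Srebf2 to Srebf1 ran from −1.60 to −0.12 with single libraries left out and turned to 0.31 without the Mos-low pools and HFD replicate 3. The difference in summed cumulus markers ran from −280 to 65.6 CPM with single libraries left out and was 136 CPM in that smaller set. Scap reversed to 0.43 within the Mos-low pools. Hmgcs1 ran from −0.37 to 0.17 with single libraries left out. It reversed to 0.0069 without HFD replicate 6 and to 0.17 without CD replicate 4, and was 0.069 with the length trend removed. Npc2 was −0.22 within the Mos-low pools; Acly was 0.33 there and 0.057 without both replicates 3; Me1 ran from −0.55 to 0.10 with single libraries left out and was 0.016 with the length trend removed. The cause of these moves was not tested. Pairing of pools by replicate number was not clear: same-numbered HFD and CD libraries correlated at −0.45 to 0.55, and 2 of 6 correlated best with their own number. The Mos split does not follow replicate numbers and enters these correlations, so they cannot decide whether same-numbered pools shared a batch. With the replicate block 0 genes were called, with log2 fold changes of −2.11 for Srebf2 and −0.89 for Scarb1. Depth limits Srebf1 and Srebf2 most, since they rest on few reads.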
